A study of Arabidopsis thaliana with 6 samples.

Results

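The stepwise risers are 109 of 22746 Arabidopsis thaliana probe sets whose signal was higher at 2 h than at 0 h of auxin treatment, and higher again at 6 h than at 2 h. They were chosen from the measured values on all 6 arrays. On the scale log2(signal + 5), the mean of each time point had to exceed that of the time point before by at least 1.2, with no overlap between the arrays, and the mean signal at 6 h had to reach 200. Of 113 probe sets that met these limits, 4 were left out by name: PUCHI, the expansin gene EXPA15, and AT5G22440 and AT3G11250, which encode proteins of the large ribosomal subunit. Because the limits used both differences and every array, the levels and differences of the members are given as descriptions, with no test. Of the 109 members, 51 could be assigned to 1 gene, 2 matched several genes, and 56 are unnamed here.

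Cells were sorted by fluorescence from seedling roots of J0121, a GAL4-GFP line whose reporter is switched on in xylem pole pericycle, so that sorting follows the reporter and the RNA obtained was below detection before labelling. All groups were kept on medium with 10 µM NPA, which blocks auxin transport and holds these cells before division. At 0 h (72 h after germination) cells were taken without further treatment, and at 2 h and 6 h (74 and 78 h after germination) they were taken after transfer to 10 µM NAA, a synthetic auxin. Each of the 3 groups had 2 arrays, named biological replicates in the labels, and time on NAA and seedling age cannot be told apart.

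Auxin acts in these cells by removing Aux/IAA repressor proteins, which frees ARF transcription factors to switch on regulators such as the LBD genes. Pericycle cells then leave their arrest and divide asymmetrically to found a lateral root. Growth before division calls for new ribosomes, which are assembled in the nucleolus from ribosomal RNA that is cut and chemically modified, and for loosening of the cell wall.

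The 6 arrays had been scaled by the authors to the same trimmed mean, and their median signals ran from 75.8 to 109.9. Hybridisation controls differed in brightness between the arrays of a time point. The 3'/5' ratios of control transcripts, which reflect RNA integrity, did not all order the arrays alike. That of actin was 4.48 and 3.84 on the 6 h arrays and lay between 1.38 and 2.98 on the 4 earlier ones. That of GAPDH was 5.78 and 2.68 at 0 h, 4.73 and 3.93 at 2 h, then 4.37 and 3.42 at 6 h. That of ubiquitin was 8.31 and 5.99 at 0 h, 6.13 and 9.71 at 2 h, then 8.81 and 10.67 at 6 h. Of 5 markers listed for pericycle and stele, 3 for xylem and 2 for the root cap, 0 were named here, so the labelled cell type could not be checked by them. The endodermis marker GSO1, a receptor kinase gene and 1 of 6 listed, had signals of 601.1 and 828.6 at 0 h, 553.4 and 1212.5 at 2 h, then 75.6 and 26.1 at 6 h. The 2 cortex markers moved in opposite directions. AT1G09750 was lower at 6 h (41.2 and 68.8) than at 0 h (164.6 and 137.4). AT1G62500 was dim but higher at 6 h (36.6 and 21.1) than at 0 h (9.1 and 15.7). AT1G09750 made up the larger part of their sum on every array. The summed signal of these markers ran from 153.1 to 173.7 at 0 h, 62.3 to 128.2 at 2 h and 77.8 to 89.9 at 6 h. That of 2 of 4 epidermis and root hair markers ran from 87.0 to 119.3 at 0 h, from 35.3 to 65.6 at 2 h and from 73.8 to 156.4 at 6 h, and that of 1 of 3 phloem markers (AT3G12730) from 53.8 to 56.0, from 52.0 to 77.7 and from 41.3 to 119.9 at these times. The part of these shifts and of the 3'/5' ratios in the members' levels was not tested. In sorted populations such as these, fewer cells of a type and less RNA per cell cannot be told apart.

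The members were dim at 0 h and bright at 6 h. Their median signal was 31.8 and 50.7 on the arrays at 0 h, 194.0 and 215.3 at 2 h, then 760.9 and 688.4 at 6 h. Over all probe sets without the controls the array medians stayed between 75.7 and 109.8. The median member was therefore below the middle of the array at 0 h and well above it at 6 h, while 17 members had a mean signal over 200 at 0 h. The floor of 200 on the mean signal at 6 h places every member above these array medians there. The limits on both differences also favour a low signal at 0 h. Signals of different probe sets depend on their probes, so an order of genes by signal is not one by transcript amount. The median member was 1.82 higher on the log2 scale at 2 h than at 0 h and 1.74 higher at 6 h than at 2 h, against -0.23 and 0.11 for all probe sets. Within the arrays with brighter hybridisation controls the members' medians were 1.98 and 1.64, and within the dimmer ones 1.86 and 1.79. Because the limits allow no overlap between arrays, each such difference is positive for every member. An effect of array brightness was not tested by this.

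**Figure D1:**
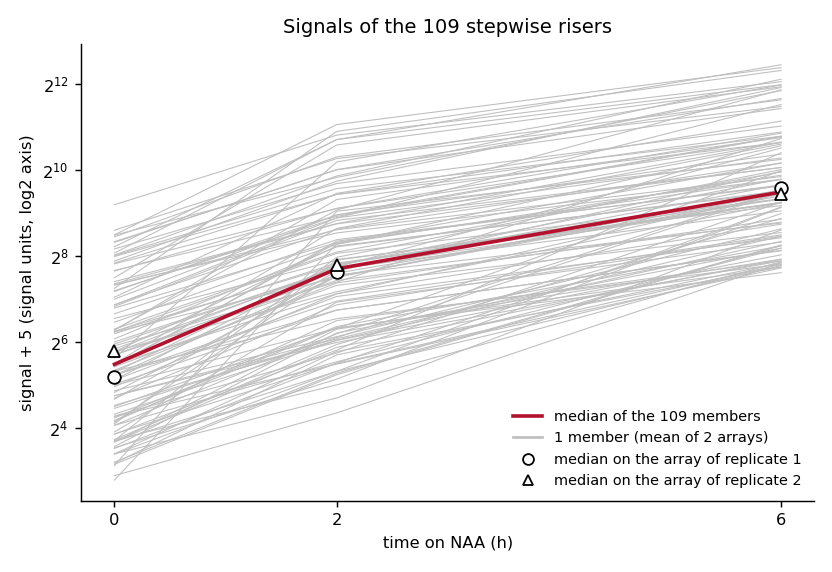
Signal plus 5 (log2 axis) against time on NAA in hours for the 109 members, with a grey line for each member's mean over 2 arrays, a red line for the median member, and circles and triangles for the median on each array. The array medians of replicates 1 and 2 lie close together at 2 h and 6 h and farther apart at 0 h, where the medians before adding 5 were 31.8 and 50.7.

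Of all probe sets 1583 (6.96%) passed the limit between 0 h and 2 h and 1730 (7.61%) passed that between 2 h and 6 h, counting those with no overlap between arrays. Among the 1583 that passed the first, 137 (8.65%) also passed the second, a share near the 7.61% of all probe sets, and they made up 7.92% of the 1730. The differences share the 2 h arrays, so they are not independent. The signal floor at 6 h removed 24 of the 137, and the 113 left were 0.497% of the array. Another 922 probe sets with a 6 h signal of at least 200 passed only between 0 h and 2 h, and 491 only between 2 h and 6 h. Median signals at 0 h were 47.8 for the members, 236.5 for those that passed only early and 105.1 for those that passed only late.

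**Figure D2:**
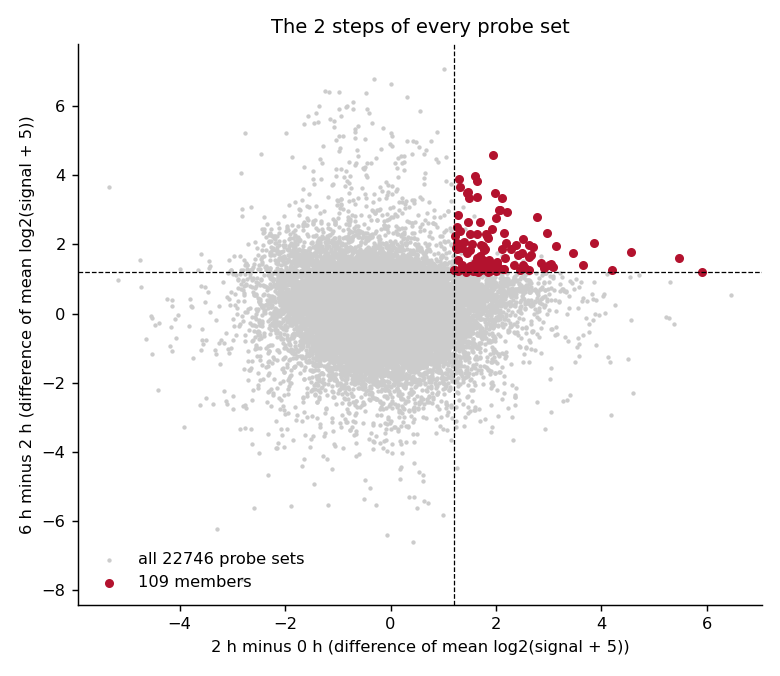
Difference 6 h minus 2 h against 2 h minus 0 h in mean log2(signal + 5) for all 22746 probe sets (grey) and the 109 members (red), with dashed lines at the limits of 1.2. Members fill the upper right corner, with differences of up to 5.91 at 2 h minus 0 h and up to 4.59 at 6 h minus 2 h.

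Values on either side of each limit were close. Just inside the first limit lay AT1G29195 (1.2), AT5G42330 and AT3G07440 (1.22 each), and just outside it AT1G01940 (1.197), AT1G48570 (1.193) and AT2G43800 (1.183), a gene for a formin, a protein that assembles actin filaments. At the second limit AT3G28420, 266737_at and AT5G14580 lay inside (1.204, 1.205 and 1.208), and 248043_s_at, AT4G25730 and 266932_s_at outside (1.19, 1.18 and 1.18). At the floor of 200, AT5G42330, 254565_at and AT5G48360 stood at 208.1, 209.7 and 210.3, and 266070_at, AT4G17760 and AT2G29260 at 195.3, 191.2 and 183.8.

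Members differed in how the increase was divided between the intervals. In 63 the difference was larger from 0 h to 2 h, and in 46 it was larger from 2 h to 6 h. Per hour, the log2 difference was higher in the first interval for 99 members and in the second for 10, with medians of 0.91 and 0.43 per hour. The same limit held for both intervals though the second was longer, so it favours a higher rate in the first. The lowest rates were 0.60 and 0.30 per hour. On the linear scale all 109 had gained less signal by 2 h than between 2 h and 6 h, which the limit on the second difference all but fixes. The share of the total 6 h gain that was present at 2 h ran from 3.17% to 41.5%, with a median of 25.2%.

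For the members, arrays of 1 group differed most at 0 h, where the members' signals were lowest. There the 2 arrays differed by more than 2-fold for 53 of the 109 members, while they did so at 2 h for 19 and at 6 h for 7. The same counts were not made over all probe sets, so they cannot be read as a property of the 0 h arrays. A mean signal under 20 at 0 h was found for 32 members, and for them the fold change depends on the pseudocount of 5. On the array of replicate 1 at 2 h, the only one with the authors' detection calls, 82 of 109 members were called present and 27 absent, where 54.8% of all probe sets were called present. The limits used the signals of this array, so the choice of members favours a larger share present.

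Genes with roles in RNA and ribosomes made up 8 of the 38 members given a role, by hand and after the members were known. Median signals of these 8 were 118.4 at 0 h, then 432.0 at 2 h and then 1192.1 at 6 h. The named member with the highest signal was AT4G12600, which encodes a protein of the L7Ae/NHP2 family, whose members bind the RNAs that guide modification of ribosomal RNA. Its signals were 387.2 and 325.6 at 0 h, 1828 and 2457.3 at 2 h, then 4241.4 and 6648.5 at 6 h. The time points were well separated, and the log2 differences were 2.56 ± 0.34 and 1.32 ± 0.34 (SE from limma, n = 2 arrays per group).

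AT2G22400, which encodes an RNA cytosine methyltransferase, had signals of 308.9 and 207.0 at 0 h, 870.8 and 651.6 at 2 h, then 1863.1 and 1654.2 at 6 h. AT5G38890, a gene for a CSL4-type subunit of the RNA-degrading exosome, had 204.0 and 73.4 at 0 h, 499.8 and 482.8 at 2 h, then 1141.8 and 1515.8 at 6 h. The 2 h arrays of AT5G38890 nearly coincided, and its 0 h arrays differed by more than 2-fold. AT4G04940 encodes a homologue of yeast Utp21, a part of the complex that processes the RNA of the small ribosomal subunit. Its signals were 164.3 and 75 at 0 h, 550.3 and 397.1 at 2 h, then 1289.8 and 1186.2 at 6 h. AT3G57940, a gene for an RNA cytidine acetyltransferase whose yeast relative acts on ribosomal RNA, stood at 152.2 and 82.1 at 0 h, 396.0 and 384.4 at 2 h, then 1261.1 and 1031.1 at 6 h. As the limits require, these genes more than doubled in each interval. Their differences were 1.56 to 2.02 at 2 h over 0 h and 1.22 to 1.54 at 6 h over 2 h.

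The other genes of this kind were AT1G13730, whose product joins an NTF2 domain to an RNA-binding domain, AT5G37530, of a family that modifies transfer RNA, and AT5G66470, which is related to the bacterial ribosome assembly GTPase Era. AT1G13730 had signals of 24.8 and 95.5 at 0 h, 306.2 and 286.0 at 2 h, then 901.6 and 562.6 at 6 h. AT5G37530 had 78.8 and 44.3 at 0 h, 178.4 and 230.7 at 2 h, then 555.8 and 494.7 at 6 h. AT5G66470 had 4.0 and 39.8 at 0 h, 80.9 and 45.4 at 2 h, then 303.3 and 216.1 at 6 h, and its 0 h and 2 h arrays were separated by a narrow gap. It was also the only gene of the 8 with a larger difference late (1.99 ± 0.76) than early (1.71 ± 0.76). Its probe set was called absent on the array of replicate 1 at 2 h.

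Listed genes of the nucleolus and of ribosome assembly were also higher at 2 h, and in the second interval their differences were smaller. A list of 39 loci for nucleolar and ribosome assembly proteins, joined with genes so described in the annotation, had 17 named genes, all tested, and 0 of them met the limits above. The list was chosen with earlier results of these data known, so its counts are not independent support. At 2 h, 17 of 17 rose against 0 h and 0 fell in limma's test (Benjamini-Hochberg adjusted p under 0.05), where 7.26% of the 13647 probe sets tested rose and 4.12% fell. At 6 h against 2 h, 0 of 17 rose and 0 fell by limma, where 3.13% rose and 5.59% fell, and 6 of the 17 were higher at an unadjusted p under 0.05. With the replicate number as a block 2 of them rose in the second interval, and without either 0 h array 1 did. The list's median differences were 2.28 and 0.74, against -0.15 and 0.10 over all tested probe sets, and each of the 17 second differences was positive and short of the call.

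Within that list AT3G22660, which encodes a homologue of the yeast ribosome assembly factor Ebp2, had signals of 126.8 and 69.6 at 0 h, 1481.5 and 934.2 at 2 h, then 2332.1 and 1751.6 at 6 h. It rose by 3.58 ± 0.38 at 2 h (adjusted p = 4.11e-04, limma), and its second difference was 0.78 ± 0.38 (adjusted p = 0.251). AT3G12860, a gene for a Nop56-like protein of the machinery that methylates ribosomal RNA, rose by 2.90 ± 0.31 (adjusted p = 3.97e-04, limma). Its second difference was 0.20 ± 0.31 (adjusted p = 0.747). AT1G52930, a homologue of yeast Brx1, picked after its values were seen as the nearest to the limit, had a second difference of 1.17 ± 0.40 (adjusted p = 0.0997, limma). The difference between members and listed genes in the second interval follows from the choice of members and was not tested.

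**Figure D3:**
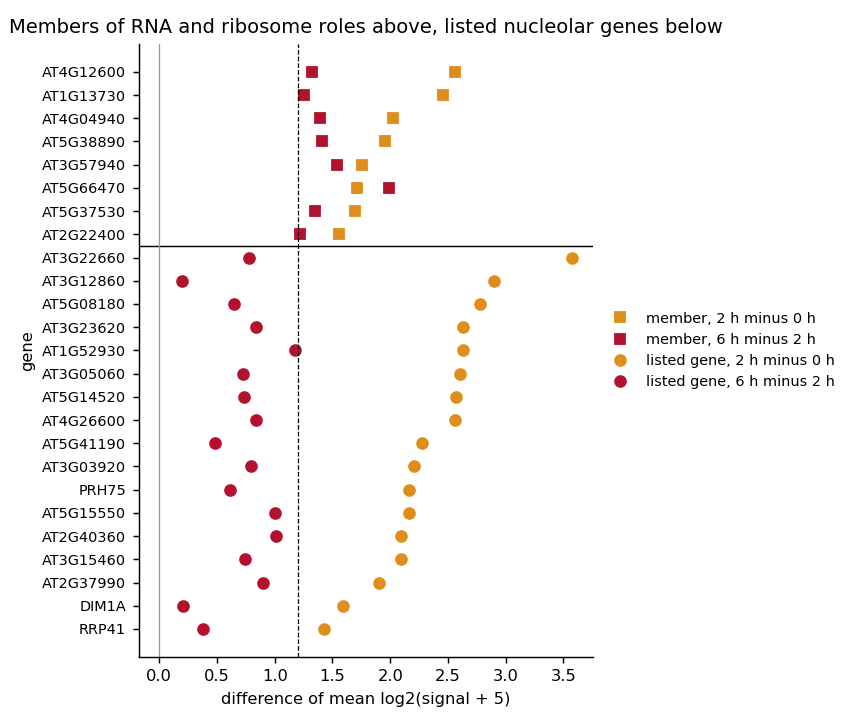
Differences in mean log2(signal + 5) at 2 h minus 0 h (orange) and 6 h minus 2 h (red) for the 8 members with roles in RNA and ribosomes (squares, above the line) and the 17 listed nucleolar genes (circles, below it), with a dashed line at 1.2. The listed genes spread from 1.43 to 3.58 in the first interval and from 0.20 to 1.17 in the second.

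Genes for pyrimidine nucleotides, the building blocks of RNA and DNA, were represented by 2 members. UPP encodes uracil phosphoribosyltransferase, an enzyme that salvages uracil. Its signals were 305.2 and 228.0 at 0 h, 1472.4 and 1886.2 at 2 h, then 4299.4 and 3780.5 at 6 h, a 6.30-fold and then a 2.41-fold change in mean signal. AT1G30820 encodes CTP synthase, which makes CTP from UTP, and had signals of 136.1 and 176.5 at 0 h, 644.9 and 230.0 at 2 h, then 1150.6 and 727.1 at 6 h. Replicates of UPP were close at every time, and those of AT1G30820 differed by more than 2-fold at 2 h, so that its second difference was 0.50 without replicate 2 there. AT1G30820 lies near 2 other members on chromosome 1: 6 protein-coding genes separate it from AT1G30760 and 4 from AT1G30860. The only other members of 1 gene within 20 protein-coding genes of each other were AT3G07440 and AT3G07540, with 11 between them.

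Members tied to organelles were 4. AT3G20240, of the mitochondrial substrate carrier family, had signals of 15.0 and 65.5 at 0 h, 207.8 and 153.3 at 2 h, then 790.7 and 566.0 at 6 h. AT4G36580, which encodes an AAA-type ATPase, had 133.0 and 33.9 at 0 h, 231.9 and 215.3 at 2 h, then 657.7 and 552.3 at 6 h. AT5G14580, for the mitochondrial polynucleotide phosphorylase that trims organelle RNA, had 54.6 and 40.9 at 0 h, 181.4 and 185.6 at 2 h, then 390.7 and 474.1 at 6 h. The arrays of all 3 were separated between the time points, as the limits require. The pentatricopeptide repeat gene AT2G18520, of a family that binds organelle RNA, had 3.8 and 31.1 at 0 h, 63.1 and 115.4 at 2 h, then 261.1 and 206.5 at 6 h. Of the genes outside the limits so described in the annotation, the pentatricopeptide repeat genes PPR596 and PPR336 were the 2 tested, and both rose at 2 h (2.62 ± 0.41 and 1.53 ± 0.39; adjusted p = 0.00238 and 0.026, limma). Their second differences of 0.97 ± 0.41 and 0.69 ± 0.39 did not pass (adjusted p = 0.184 and 0.316).

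Genes for proteins of the wall, secretion and oxidation made up 7 members whose mean signal at 6 h ran from 227.7 to 4480.6. AT1G30760, of the berberine bridge enzyme family of secreted oxidases, had signals of 220.8 and 294.6 at 0 h, 886.8 and 960.8 at 2 h, then 5286.8 and 3674.3 at 6 h. Only 15.8% of its 6 h gain was present at 2 h. AT3G25290 and AT4G12980 encode related proteins with a cytochrome b561 and a DOMON domain, of a family described as auxin-responsive. AT3G25290 had signals of 183.7 and 167.9 at 0 h, 1308.6 and 1777.5 at 2 h, then 4092.2 and 3714.4 at 6 h. AT4G12980 had 24.1 and 31.4 at 0 h, 50.9 and 200 at 2 h, then 219.1 and 346.2 at 6 h, and its 2 h arrays lay far apart. Without replicate 1 at 2 h its second difference was 0.45. For AT3G25290 the differences were 3.08 ± 0.31 and 1.35 ± 0.31, and for AT4G12980 1.72 ± 0.61 and 1.39 ± 0.61.

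GH9B13, of the endoglucanase family that acts on cellulose and related glucans, had signals of 211.9 and 118.5 at 0 h, 299.2 and 602.3 at 2 h, then 706.7 and 1591.5 at 6 h. Its arrays differed by about as much within 2 h and within 6 h as its means differed between them, and the upper 2 h array lay close to the lower 6 h array. AT4G29360, of the beta-1,3-glucanase family, had 83.9 and 6.0 at 0 h, 147.0 and 122.5 at 2 h, then 707.8 and 675.8 at 6 h. The thaumatin family gene AT4G38660 had 15.1 and 72.4 at 0 h, 247.0 and 197.2 at 2 h, then 597.1 and 595.7 at 6 h. The class III peroxidase gene AT5G14130 had 5.3 and 3.1 at 0 h, 15.9 and 125.0 at 2 h, then 192.9 and 262.4 at 6 h, and its 2 h array of replicate 1 was called absent.

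Other genes described in the annotation by cell wall terms moved in both directions. Of 45 tested outside the limits, 5 rose and 5 fell at 2 h against 0 h, and 1 rose and 4 fell at 6 h against 2 h (limma), which is 11.1% and 2.22% higher beside 7.26% and 3.13% of all tested probe sets. TBL36, of a family that acetylates wall polysaccharides, had signals of 145.9 and 174.5 at 0 h, 2988.9 and 4961.3 at 2 h, then 7200.3 and 8813.9 at 6 h. It rose by 4.55 ± 0.34 in the first interval (adjusted p = 1.08e-04, limma), and its second difference was 1.05 ± 0.34 (adjusted p = 0.0853).

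Signalling genes were dim at 0 h. There were 8, with median signals of 17.0 at 0 h, then 102.2 at 2 h and then 406.0 at 6 h. They include IAA20, which encodes an Aux/IAA protein that lacks the degron through which auxin removes its relatives. IAA20 had signals of 8.5 and 3.3 at 0 h, 35.7 and 11.7 at 2 h, then 391.5 and 377.8 at 6 h. Nearly all of its gain came after 2 h: 4.70% was present by then, and its probe set was called absent on the array of replicate 1 at 2 h. It lay below the filter on mean signal and was not in the limma fit.

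Of the other tested genes with auxin terms in the annotation, 2 of 5 rose at 2 h (limma). They were IAA29 and IAA30, also of the Aux/IAA family, with first differences of 3.76 ± 0.45 and 2.49 ± 0.61 (adjusted p = 6.49e-04 and 0.023, limma). They had second differences of -0.55 ± 0.45 and 0.65 ± 0.61 (adjusted p = 0.515 and 0.575, limma). Of 35 listed regulators of auxin response and lateral roots 4 were named and 3 tested, of which LBD16 and LBD29 rose at 2 h (2.04 ± 0.33 and 2.08 ± 0.41; adjusted p = 0.00298 and 0.00826). This list, too, was chosen with earlier results of these data known. Without either 2 h array only 1 gene of it was called. LBD16 then had signals of 1167.2 and 736.8 at 6 h, against 1920.4 and 2296.3 at 2 h, a difference of -1.18 ± 0.33 (adjusted p = 0.0501, limma), called lower under 6 of 15 alternatives, with adjusted p from 0.0271 to 0.343. With the replicate number as a block LBD16 was called lower (adjusted p = 0.0271), and 1 other gene of the list was called higher.

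The protein kinase gene AT3G01490 had the opposite division of its increase to IAA20. Its signals were 13.5 and 4.3 at 0 h, 208.9 and 269.6 at 2 h, then 672.3 and 486.0 at 6 h, and 40.4% of the 6 h gain was present at 2 h. Its probe set was nevertheless called absent on the array of replicate 1 at 2 h, as were those of AT5G45780 and AT5G03640 below. Receptor kinase genes with leucine-rich repeats were AT5G67200, with 23.1 and 66.5 at 0 h, 96.3 and 187.9 at 2 h, then 362.6 and 491.9 at 6 h, and AT5G45780, with 4.0 and 26.2 at 0 h, 40.9 and 42.5 at 2 h, then 349.0 and 233.7 at 6 h. On the log2 scale AT5G45780 had a larger difference late than early (1.48 ± 0.715, then 2.64 ± 0.715). AT5G67200 divided its increase evenly on that scale (1.64 ± 0.52 and 1.61 ± 0.52). The AGC kinase gene AT5G03640 had 10.7 and 2.1 at 0 h, 21.1 and 56.3 at 2 h, then 219.4 and 210.2 at 6 h. The U-box kinase gene AT5G65500 had 13.1 and 24.6 at 0 h, 74.0 and 50.4 at 2 h, then 403.2 and 252.7 at 6 h. Both were faint until 6 h. AT1G34750, for a protein phosphatase 2C, had 30.4 and 87.8 at 0 h, 188.4 and 219.2 at 2 h, then 620.7 and 581.7 at 6 h. AT1G30860, for a RING/U-box protein that may attach ubiquitin, had 17.0 and 32.0 at 0 h, 196.8 and 163.9 at 2 h, then 760.9 and 634.9 at 6 h, and its 3 time points were well separated.

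**Figure D4:**
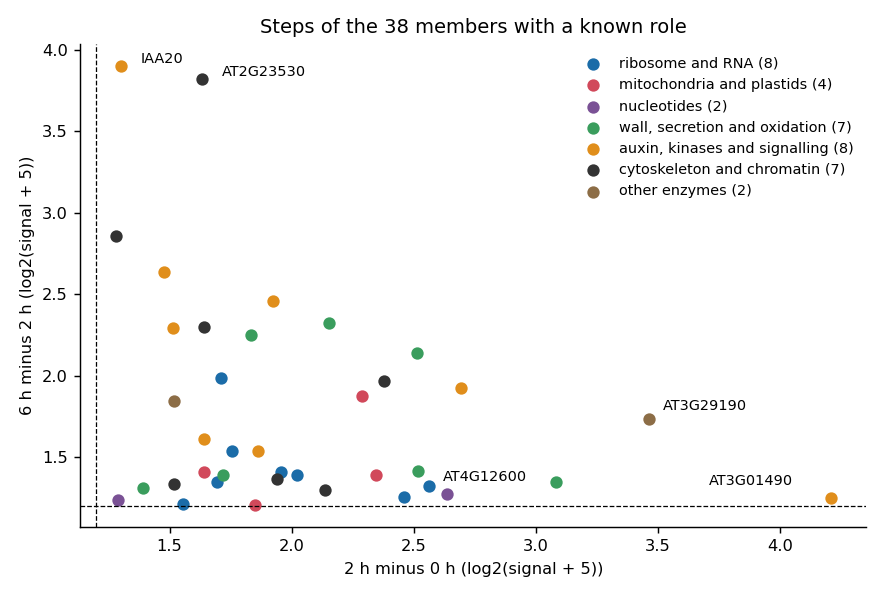
Difference 6 h minus 2 h against 2 h minus 0 h in mean log2(signal + 5) for the 38 members with a known role, coloured by role, with dashed lines at the limits of 1.2. IAA20 and AT2G23530 stand at the upper left, with second differences of 3.90 and 3.82, and AT3G01490 at the lower right, with a first difference of 4.21.

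The 7 cytoskeleton and chromatin genes had a median difference of 1.97 at 6 h minus 2 h and of 1.64 at 2 h minus 0 h. AT2G23530, which encodes a zinc-finger protein related to the animal protein CDCA7, had signals of 11 and 5.4 at 0 h, 32.4 and 37.8 at 2 h, then 628.4 and 498.0 at 6 h. Its 2 h signals were low and close together, and 4.85% of its gain was present then. Its probe set was called absent on the array of replicate 1 at 2 h, as were those of AT1G72250 and AT3G07540 below. Its first difference of 1.63 was 0.97 with a pseudocount 4 times larger. AT1G72250, for a kinesin motor protein that moves along microtubules, had 15.2 and 3.7 at 0 h, 15.3 and 46.1 at 2 h, then 184.1 and 283.3 at 6 h, so that 1 array at 2 h was level with 1 at 0 h. The formin gene AT5G48360 had 6.7 and 4.6 at 0 h, 62.8 and 39.7 at 2 h, then 213.1 and 207.5 at 6 h. The formin gene AT3G07540 had 18.9 and 3.9 at 0 h, 55.7 and 29.0 at 2 h, then 193.4 and 246.5 at 6 h. The arrays of both were separated between the times, as the limits require, and neither passed the filter on mean signal.

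AT2G35605 and AT2G14880 encode related proteins with a SWIB domain, which is found in chromatin remodelling proteins. AT2G35605 had signals of 317.6 and 250.5 at 0 h, 787.6 and 848.5 at 2 h, then 2291.9 and 1867.8 at 6 h. AT2G14880 had 72.2 and 54.0 at 0 h, 250 and 340.3 at 2 h, then 794.6 and 662.9 at 6 h. Replicates of both were close at every time, and both differed more between 0 h and 2 h (1.52 ± 0.31 and 2.14 ± 0.35) than between 2 h and 6 h (1.33 ± 0.31 and 1.30 ± 0.35). AT1G75090, for a DNA glycosylase, an enzyme of base excision repair, had 87.5 and 8.1 at 0 h, 101.6 and 162.2 at 2 h, then 345.1 and 332.4 at 6 h, with its 2 h arrays closer to 1 of the 0 h arrays than to those at 6 h.

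Of 28 listed mitosis and cytokinesis genes 7 were named and 6 tested, none within the limits. This list and the replication list below were chosen with earlier results of these data known, so their counts are not independent support. At 6 h against 2 h 6 of 6 rose (3.13% of all tested probe sets were higher), and at 2 h against 0 h 0 rose and 0 fell by limma, also 0 and 0 at an unadjusted p under 0.05. The list medians were 4.26 at 6 h minus 2 h and 0.05 at 2 h minus 0 h. AUR1, for a mitotic Aurora kinase, had signals of 124.3 and 77.3 at 0 h, 85.3 and 126.3 at 2 h, then 2163 and 2310.1 at 6 h. The count of 6 was 4 without either 6 h array, and 2 with a filter at the 60th percentile, which tests fewer genes. Of 18 listed replication genes 2 were tested. At 6 h against 2 h 1 of them rose by limma: PRL, for the helicase subunit MCM7, by 1.87 ± 0.30 (adjusted p = 0.00279), while ICU2, for DNA polymerase alpha, had 1.17 ± 0.45 (adjusted p = 0.147). At 2 h against 0 h 0 of the 2 were called, and 1 was higher at an unadjusted p under 0.05, PRL with 0.73 ± 0.30 (adjusted p = 0.151, limma).

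Other named members have no role stated here or belong to other enzyme families. AT3G28420 had the largest total difference, 7.11, with signals of 4.5 and 3.1 at 0 h, 373.4 and 727.6 at 2 h, then 1855.5 and 785.6 at 6 h. Its upper 2 h array was close to its lower 6 h array, and the size of its first difference (5.91 ± 0.48) depends on the pseudocount. AT1G03820 started higher, at 42.1 and 47.0, and had 805.0 and 1667.8 at 2 h and 3441.9 and 4681.8 at 6 h, a 27.8-fold and then a 3.29-fold change in mean signal. AT1G29980 had 278.7 and 70.7 at 0 h, 448.4 and 488.0 at 2 h, then 3057.3 and 2809.6 at 6 h, with 10.6% of its gain present at 2 h.

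AT3G29190, for a terpene synthase, had signals of 21.4 and 6.8 at 0 h, 106.2 and 335.1 at 2 h, then 1098.5 and 376.0 at 6 h, so that 1 array at 2 h nearly reached 1 at 6 h. AT4G33180, of the alpha/beta hydrolase family, had 83.4 and 134.2 at 0 h, 284.2 and 343.4 at 2 h, then 1127.8 and 1146.7 at 6 h. Among genes with the largest total differences, AT3G15550, AT4G26660 and AT1G49870 had a larger second than first difference. AT3G15550 had 16.0 and 1.5 at 0 h, 32.7 and 28.0 at 2 h, then 589.2 and 521.1 at 6 h, and AT4G26660 had 3.6 and 5.0 at 0 h, 28.0 and 40.6 at 2 h, then 313.9 and 288.7 at 6 h. AT1G49870 had 1.8 and 3.2 at 0 h, 29.4 and 7.2 at 2 h, then 180.5 and 278.1 at 6 h. The probe sets of AT3G29190, AT4G26660 and AT1G49870 were called absent on the array of replicate 1 at 2 h. The remaining named members, AT1G29195, AT5G17270, AT4G31360, AT1G04030, AT2G31725, AT3G07440 and AT5G42330, lay between 164.7 and 898.3 on the 6 h arrays.

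**Figure D5:**
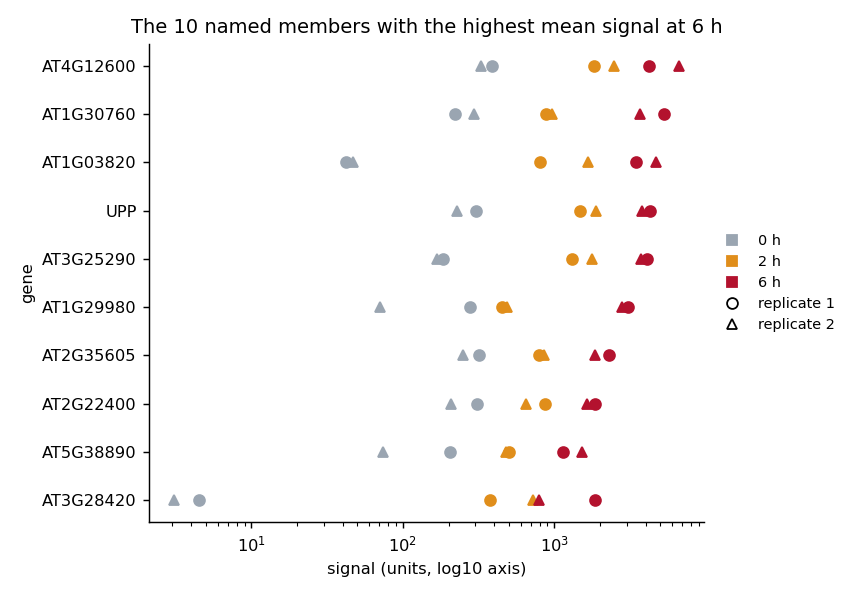
Signal (log10 axis) on each of the 6 arrays for the 10 named members with the highest mean signal at 6 h, with grey, orange and red for 0 h, 2 h and 6 h and circles and triangles for replicates 1 and 2. AT4G12600 reaches 6648.5 at the top, and AT3G28420 at the bottom starts from 3.1 and 4.5.

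For the 58 members without a gene of their own, the median mean signals were 61.5 at 0 h, then 242.3 at 2 h and then 964.5 at 6 h, against 43.8 at 0 h, 180.6 at 2 h and 579.2 at 6 h for the named members. Some were chosen here after their values were seen, as the extremes of the whole group. Probe set 247575_at was the brightest member at 6 h, with 632.2 and 134.1 at 0 h, 2239.5 and 1234.4 at 2 h, then 6423.9 and 4817.1 at 6 h. The largest second difference, 4.59 ± 0.51, was that of 264802_at, with 5.0 and 16.2 at 0 h, 39.0 and 67.0 at 2 h, then 1390.6 and 1303.6 at 6 h. Expansin and ribosomal protein genes could be left out by name only, so unnamed members may include some.

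Gene length was a property that the limits did not use. The median span of the 51 named genes was 2632 bases, against 2105 for all 13286 named loci, 2109 for named genes that passed only early and 2472 for those that passed only late. Spans are from the RefSeq annotation of TAIR10.1, and this comparison is a description.

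In limma's fit, 100 of the 109 members passed the filter on mean signal and 9 did not. The 9 were IAA20, AT5G48360, AT3G07540, AT5G14130, AT5G03640, AT4G26660, AT1G72250, AT1G49870 and 267232_at. Of the 100, 63 were called higher at 2 h than at 0 h (7.26% of all tested probe sets were), 56 at 6 h than at 2 h (3.13%), 38 in both (0.359%) and 19 in neither. These counts restate the choice of members and are given for reference only. When 1 array at 2 h was left out, 77 of the 109 (without replicate 1) and 82 (without replicate 2) still met the limits, beside 43 other probe sets each time.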

How the data were processed

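Signals of 6 one-colour Affymetrix arrays were used. MAS5 is named in the submitters' processing notes, without a version. The deposited table holds linear signal intensities, scaled by the authors to a mean of 250.0 after trimming 2% of probe sets at each end, as the values show. For replicate 1 at 2 h a detection p-value and call per probe set were also deposited by the authors, and all 22810 signals there equalled the series table. Arrays have no read depth, so their number limits the precision.

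The authors' scaling was kept, 64 controls were left out, and log2(signal + 5) was taken from the deposited intensities. limma 3.58.1 in R 4.3.3 (lmFit, eBayes with an intensity trend, all 6 arrays, 3 residual and 8.26 prior degrees of freedom) was fitted to the 13647 probe sets above the 40th percentile of mean log2 signal, with Benjamini-Hochberg adjustment over all of them. The fit was tested on simulated data. P-values measure only the spread between these arrays.

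Names came from the platform annotation matched to RefSeq (TAIR10.1), for probe sets with 1 gene, and a listed locus was represented by its brightest probe set. Roles were given to members by hand, after the members were known, from background knowledge. The members and lists were chosen with earlier results of these data known. Values on all arrays were given for the 10 members of 1 gene brightest at 6 h and the 10 of 1 gene with the largest total difference. They were also given for members with a known role and relatives among them. From the lists only some genes were named, not always those with the largest change and not all with array values.

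The labels state no pairing by replicate number. Deviations of same-numbered arrays correlated weakly, at 0.06, 0.15 and 0.11, which cannot settle whether the arrays were paired. Alternatives were other pseudocounts, filters and scalings, no trend, blocks, and leaving out each array.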

Additional observations from a re-analysis of the deposited data

How the results depend on the processing

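The number of probe sets within the limits was 109, and 76 to 134 under 10 alternatives. It was 120 and 76 with a pseudocount 4 times smaller or larger, 129 after quantile normalization and 114 after centring on array medians, with 109, 76, 104 and 85 of the 109 members kept. Without single arrays it was 116 to 134. The members' median 2 h minus 0 h ran from 1.53 to 2.09, and from 1.79 to 1.96 without single arrays. Their median 6 h minus 2 h was 1.59 after centring and 1.68 to 1.80 without single arrays. Centring moved the median of all probe sets to 0.04 and -0.04, against -0.23 and 0.11, and so shifted the members by the same amount.

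limma called 1553 probe sets at 2 h versus 0 h and 1190 at 6 h versus 2 h. Without the intensity trend the first count was 976. Without single arrays the counts were 473 to 1595 and 521 to 1734, lowest for the first without replicate 2 at 2 h (473, and 656 without replicate 1) and for the second without replicate 2 at 6 h (521). The second was 526 and 563 without replicate 1 or 2 at 2 h and 604 without replicate 1 at 6 h. With the replicate number as a block the counts were higher, at 2038 and 1662. A block for hybridisation controls, chosen after seeing the data, gave 1242 and 904. Of calls at 2 h versus 0 h 63.8% were higher, and 82.4% after centring. The 17 nucleolar genes gave 15 to 17 rises at 2 h and 0 to 2 at 6 h versus 2 h, and the mitotic list 2 to 6 at 6 h versus 2 h. Of the changes of single list genes, 495 kept their side of the threshold under the alternatives, 22 fell short of it and 11 newly passed it. Of 408 values of the named members' differences under alternatives that keep all arrays, 36 moved by over 1 SD of the replicates. Leaving out 1 of 2 arrays moves a mean by less than 1 SD by construction, yet 46 of the 102 differences were under the limit of 1.2 without some single array. They were as low as 0.21 (AT3G07440, 2 h minus 0 h), and the absence of overlap keeps them above 0.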
